A study of Mus musculus with 6 samples.

Results

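Cells hold hydrogen peroxide, lipid peroxides and superoxide in check with a small set of enzymes, and the genes for these enzymes are described here in single mouse oocytes. The members are all genes whose array probe carries a single symbol of the superoxide dismutases and catalase, the glutathione peroxidases (Gpx), the peroxiredoxins (Prdx), the thioredoxin family (Txn), the enzymes of glutathione synthesis and reduction, the glutaredoxins, the glutathione S-transferases, or the haem oxygenases and quinone reductases. They came to 59 genes on 63 probes, of 13840 genes with a single symbol and 33012 probes in all. A probe that carries both Gsta2 and Gsta1 was left out by this rule.

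Superoxide dismutases turn superoxide into hydrogen peroxide, which catalase, the glutathione peroxidases and the peroxiredoxins then remove. Glutathione peroxidases take their electrons from glutathione, a small thiol made from glutamate, cysteine and glycine, whereas most peroxiredoxins take them from thioredoxin. The transcription factor NRF2 drives many of these genes through the antioxidant response element. The oocyte stores glutathione during maturation, and the egg uses this store when it remodels the sperm nucleus after fertilization.

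The study asked which genes change in oocytes that lack Ago2, the Argonaute protein that carries small RNAs to their targets. Each array held the amplified cDNA of 1 oocyte. The Ago2-deficient group was 3 mature oocytes of adult [Ago2F/F, Zp3-Cre] conditional knockout females, in which the Zp3 promoter expresses Cre, and so deletes the floxed Ago2 allele, in growing oocytes. The control group was 3 wild-type oocytes of adult females, labelled as germinal vesicle (GV) oocytes, the stage before meiosis resumes. A heat map of the study also shows wild-type mature oocytes, which are not among the 6 arrays used here. The labels say that the GV oocytes came from oviducts and lost their cumulus cells to hyaluronidase, which the study's methods say of ovulated oocytes. The study also says that deletion can fail in a few oocytes and that the allele may leave some function. Genotype and stage differ together, so the effects of loss of Ago2 and of maturation cannot be told apart here. Nothing in the labels tells how many females gave the oocytes, so a p-value here covers no more than the spread from oocyte to oocyte.

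All values below are log2 signals that the authors had quantile normalized over the 6 arrays, and a difference is the Ago2-deficient mean minus the GV mean. Detection of a probe meant a signal-to-noise ratio of 3 or more, and limma was run on probes that every array of a group, or of both, detected. A gene was called higher or lower at an adjusted p under 0.05 (Benjamini-Hochberg over all probes tested) with a log2 difference over 1 in size. The values are relative to the rest of each array, so less of a transcript and less RNA in an oocyte cannot be told apart.

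The arrays of the Ago2-deficient oocytes detected 4620 to 6798 probes and those of the GV oocytes 10650 to 11334. The probe for Ago2 itself stood at 6.67, 6.49 and 6.94 against 7.88, 6.25 and 6.93 in GV oocytes, and since GV oocyte 1 alone detected it, it does not check the genotype. Of 11 oocyte marker genes, all were detected on each GV array and 8 or 9 on the Ago2-deficient arrays, where Zp2 and Figla were detected on none. The summed signal of these markers was 1140000 to 1310000 in the Ago2-deficient and 3550000 to 3960000 in the GV oocytes. Of 15 cumulus and granulosa markers, 2 to 4 were detected per array in either group, and the summed signal was 14400 to 40700 in the Ago2-deficient against 4100 to 5890 in the GV oocytes. Btc alone, at a log2 signal of 15.09, 13.16 and 13.84, gave most of the sum in each Ago2-deficient oocyte. Fshr, Amh, Has2 and Tnfaip6 were detected on no array, Btc and Ereg on every Ago2-deficient and no GV array, and Inha and Hsd17b1 on every GV and no Ago2-deficient array. Of 11 markers of other ovarian and blood cells, 1, 2 and 1 were detected on the Ago2-deficient and 3, 2 and 3 on the GV arrays. Their summed signal was 5460 to 7610 in the Ago2-deficient and 1840 to 2450 in the GV oocytes. Dcn was detected on every Ago2-deficient and no GV array. Col1a2 was detected on every GV array and on 1 Ago2-deficient array, although its mean signal was higher in the Ago2-deficient oocytes. Col1a1 and Alas2 were detected on 2 GV arrays each and Pecam1 on 1, and none of these on an Ago2-deficient array. All these sums include undetected probes, such as Pecam1, which read 11.54, 10.51 and 7.11 in the Ago2-deficient oocytes without detection. Whether other cells or array noise have a part in the differences below was not tested.

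Among the antioxidant genes that every GV oocyte detected, more were lower than higher in the Ago2-deficient oocytes. So it was over all tested genes, with 44.8% lower and 17.4% higher, and selection by the GV oocytes leans such counts towards lower genes. Sod1, the cytosolic superoxide dismutase, Glrx5, a mitochondrial glutaredoxin, and Gpx4, which reduces lipid peroxides in membranes, were among the lower genes. Gclm, a subunit of the rate-limiting enzyme of glutathione synthesis, and the glutathione peroxidase Gpx6 were the genes called higher. Of the 63 member probes, 9, 18 and 22 were detected in Ago2-deficient oocytes 1, 2 and 3, and 36, 36 and 37 in the GV oocytes. These are 14.3%, 28.6% and 34.9% against 57.1%, 57.1% and 58.7%. Over all probes with a single symbol, the shares were 16.4%, 23.7% and 24.4% in the Ago2-deficient and 43.0%, 40.9% and 40.7% in the GV oocytes. The Ago2-deficient oocytes thus lay below the GV oocytes for the members as for all probes.

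**Figure D1:**
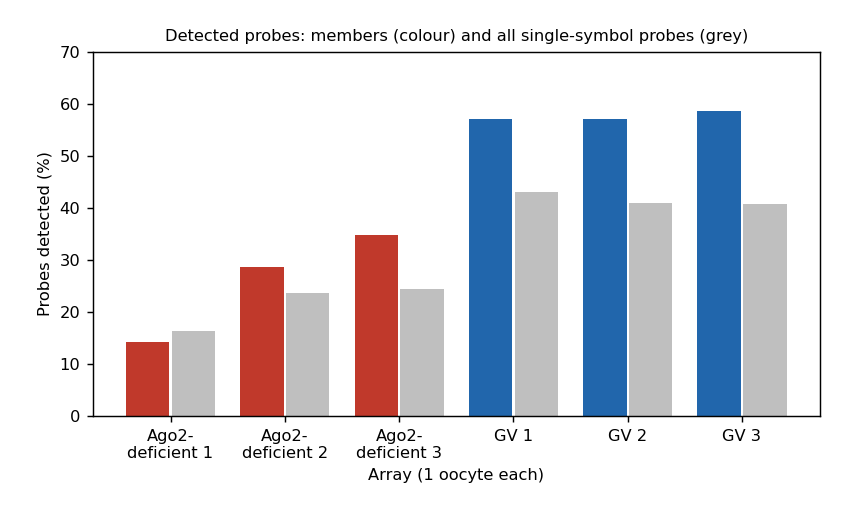
Share of probes with a signal-to-noise ratio of 3 or more (vertical axis, percent) on each array of 1 oocyte, with member probes in red (Ago2-deficient mature) or blue (wild-type GV) and all probes with a single symbol in grey. The members' share runs from 14.3% to 34.9% in the Ago2-deficient oocytes and from 57.1% to 58.7% in the GV oocytes.

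Of the 59 genes, 28 were tested and 31 were not. All 28 were detected on each GV array and 8 of them on each Ago2-deficient array, so 20 passed the filter through the GV oocytes alone, which leans the counts below towards lower genes. Of the 28, 15 were called lower and 2 higher, and 11 were not called. Over all 7915 tested genes, 44.8% were called lower and 17.4% higher. The groups did not overlap in 20 of the 28, and in 70.4% of all tested genes. The median difference was -1.98 over the tested members and -1.39 over all tested genes.

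The 8 members detected on all 6 arrays pass the filter through either group. Of all tested genes, 2744 were detected on all 3 Ago2-deficient arrays and 7668 on all 3 GV arrays. Detection on all 6 is thus mostly limited by the Ago2-deficient arrays, which leans this subset towards higher genes. Of these, 2 were called higher (Gclm and Gpx6), 3 lower (Txndc2, Txndc9 and Gsta4), and 3 were not called (Gstm5, Txndc11 and Prdx2). Over the 2497 genes detected on all 6 arrays, 43.5% were called higher and 20.2% lower. The median difference was 0.18 over these 8 members and 0.83 over the 2497 genes. The 8 were not tested against the rest.

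**Figure D2:**
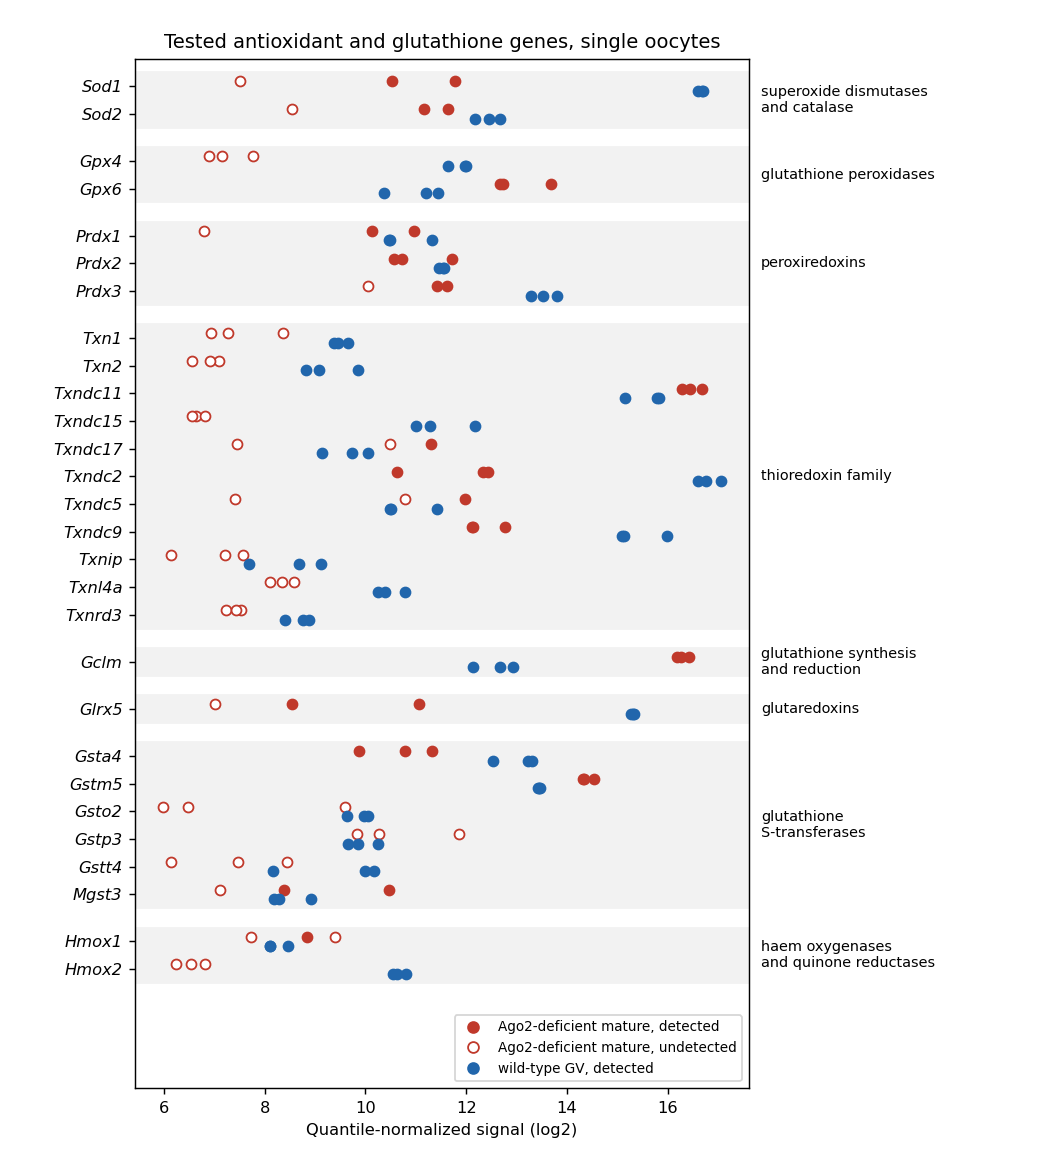
Quantile-normalized log2 signal (horizontal axis) of each tested member in the 3 Ago2-deficient mature oocytes (red, open where undetected) and the 3 wild-type GV oocytes (blue), grouped by role. Sod1 lies between 7.51 and 11.78 in the Ago2-deficient oocytes and between 16.60 and 16.70 in the GV oocytes, while Gclm lies between 16.19 and 16.43 against 12.13 and 12.94.

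Some members carry the letters TGACNNNGC, the core of the antioxidant response element, in the 250 bases before or 50 bases after the start of transcription, on either strand. The stretches around them are shown for 5 tested members, because the same letters stand before a gene called higher (Gclm), before genes called lower (Sod1 and Txndc2) and before genes that were not called (Prdx1 and Gstm5). The sequences are from RefSeq on GRCm38.p6 and read 5′ to 3′ along the gene's own strand. Capitals mark the 9 letters of the motif, which read GCNNNGTCA where it lies on the opposite strand.
Gclm, chr3:122245393-122245461, plus strand: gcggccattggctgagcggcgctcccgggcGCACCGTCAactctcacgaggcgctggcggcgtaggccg
Sod1, chr16:90220676-90220744, plus strand: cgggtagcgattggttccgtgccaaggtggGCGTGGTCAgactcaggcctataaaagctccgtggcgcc
Txndc2, chr17:65639921-65639989, minus strand: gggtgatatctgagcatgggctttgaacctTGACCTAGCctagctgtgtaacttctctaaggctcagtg
Prdx1, chr4:116685436-116685504, plus strand: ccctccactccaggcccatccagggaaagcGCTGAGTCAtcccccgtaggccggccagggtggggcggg
Gstm5, chr3:107895782-107895850, plus strand: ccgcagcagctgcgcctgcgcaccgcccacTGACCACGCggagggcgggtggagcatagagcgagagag

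With the start of transcription at 0, the motif spans -134 to -126 in Gclm, -56 to -48 in Sod1, -203 to -195 in Txndc2, -133 to -125 in Prdx1 and -42 to -34 in Gstm5. Of 51 member genes with a promoter in the table, 10 held the motif in at least 1 promoter, or 19.6%. Among all 27025 genes with a promoter the share was 14.0%, and these shares were not tested against each other. By promoter the share was 14.3% of 70 for the members, 12.4% of all 32851 and 13.4% of those of genes with a probe. Of 25 tested members with a promoter, 7 held it, of which 1 was called higher, 2 lower and 4 were not called, Txndc11 and Txndc5 being the other two without a call. A match of these letters says nothing of whether a factor binds there.

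The dismutases stand at the head of the pathway. Sod1, which removes superoxide in the cytosol, read 7.51, 10.53 and 11.78 in Ago2-deficient oocytes and 16.69, 16.60 and 16.70 in GV oocytes. All 3 Ago2-deficient oocytes lay far below the GV oocytes and also far from each other, and oocyte 1 did not detect the gene. The difference was -6.73 (standard error 1.03, limma adjusted p = 0.00162), the largest among the tested members, and it was -5.51 without Ago2-deficient replicate 1 and -7.65 without Ago2-deficient replicate 3. Sod2, the mitochondrial dismutase, read 8.55, 11.16 and 11.63 against 12.67, 12.45 and 12.18. The groups did not overlap, but the spread of the Ago2-deficient oocytes was wide and the difference of -1.98 (standard error 0.81) did not pass the test (adjusted p = 0.0689). It was called lower without Ago2-deficient replicate 1 or 3, at -1.04 and -2.58 (adjusted p = 0.0341 and 0.0317), and with arrays given the same median, left unscaled or aligned on the probes that all 6 detected, at -4.74, -3.64 and -2.08 (adjusted p = 1.18e-05, 3.74e-05 and 0.00319). Sod3, the extracellular form, was detected in 1 GV oocyte and catalase (Cat) on no array.

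The glutathione peroxidases split between a lower and a higher gene. Gpx4, which removes lipid peroxides from membranes, read 7.76, 6.90 and 7.15 in Ago2-deficient oocytes and 11.64, 11.98 and 11.99 in GV oocytes. No Ago2-deficient oocyte detected it and every GV oocyte did, and it was at least 24.3-fold lower (adjusted p = 0.000186). Such a bound sets the GV mean against the probe's own signal on each Ago2-deficient array or, if higher, the lowest signal detected there. For Gpx4 the bound equals the fold difference of the means. Such bounds hold for the deposited scaling only, and other scalings can give smaller or opposite differences. They allow for the lack of detection and not for the spread between oocytes, so they are no limits of confidence. With 1 array left out, the bound ran from 21.3 to 28.8 for Gpx4. It fell as low as 3.22 for Txn1 and 2.14 for Txnip, 2 genes given below. With cyclic loess the difference of Gpx4 was -2.42, beside -4.6 with the deposited values. Gpx6, a peroxidase known from the olfactory epithelium, read 12.74, 13.68 and 12.67 against 10.36, 11.20 and 11.44. Every Ago2-deficient oocyte lay above every GV oocyte, by a mean of 2.03 (standard error 0.46, adjusted p = 0.00799). This call rests on the scaling of the arrays: the difference was -1.13 under median scaling (every array given the same median) and -0.02 without any scaling. Gpx1, Gpx7 and Gpx8 were detected in 1 or 2 GV oocytes alone, Gpx5 in 1 oocyte of each group, and Gpx2 and Gpx3 on no array.

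Of the 3 peroxiredoxin genes, the mitochondrial one was lower and the others were not called, beside 44.8% lower over all tested genes. All 3 were lower under median scaling and without scaling, as were 6223 and 4778 of all 7915 tested genes. Prdx3, the peroxiredoxin of mitochondria, read 10.06, 11.62 and 11.42 in Ago2-deficient oocytes and 13.29, 13.53 and 13.81 in GV oocytes. The groups lay clearly apart, although oocyte 1 did not detect it, with a difference of -2.51 (standard error 0.49, adjusted p = 0.00447). Prdx2, a cytosolic peroxiredoxin, was detected on all 6 arrays and read 10.56, 11.71 and 10.72 against 11.53, 11.55 and 11.46. Ago2-deficient oocyte 2 lay above the GV oocytes and the other two below, and the difference of -0.52 (standard error 0.40) did not pass the test (adjusted p = 0.295). Prdx1, also cytosolic, read 6.79, 10.96 and 10.12 against 11.33, 10.49 and 10.47 on its brighter probe, a difference of -1.47 (adjusted p = 0.259) in which the lowest oocyte was again oocyte 1. Its dimmer probe gave another call, since no Ago2-deficient oocyte detected it and it was at least 2.61-fold lower (adjusted p = 0.0109).

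The thioredoxin family held the most tested members. Of 17 genes 11 were tested, 8 were lower and none was higher, beside 44.8% lower and 17.4% higher over all tested genes. With cyclic loess 4 were lower and 1 higher, beside 2515 and 1952 of all 7915 tested genes. With arrays aligned on the probes that all 6 detected, 3 were lower and none higher, beside 2479 and 1589 of all tested genes. Under median scaling all 11 were lower, beside 6223 of all tested genes. Of the 11, only Txndc2, Txndc9 and Txndc11 were detected on every Ago2-deficient array, and the others passed the filter through the GV oocytes alone. Txn1 and Txn2, the thioredoxins of the cytosol and of mitochondria, were detected in every GV and in no Ago2-deficient oocyte. Txn2 read 6.56, 7.10 and 6.91 in the Ago2-deficient and 8.82, 9.08 and 9.86 in the GV oocytes, at least 5.26-fold lower (adjusted p = 0.00216). Txn1 ran from 6.94 to 8.36 against 9.37 to 9.66, at least 3.93-fold lower (adjusted p = 0.00786). Neither call held under centring, in which the arrays are aligned on the median of the probes that all 6 of them detected. There the differences were -0.52 for Txn2 and -0.35 for Txn1, and Txn1 also lost its call with cyclic loess, at -0.45.

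Txndc2, a thioredoxin best known from the sperm tail, read 10.63, 12.33 and 12.44 in Ago2-deficient oocytes and 17.06, 16.76 and 16.60 in GV oocytes. All 6 oocytes detected it, and even the highest Ago2-deficient oocyte was far below the GV oocytes. The difference was -5.01 (standard error 0.55, adjusted p = 0.000472), or -4.42 without Ago2-deficient replicate 1. Txndc9, a thioredoxin-domain protein that binds the cytosolic chaperonin, read 12.77, 12.14 and 12.11 against 15.99, 15.13 and 15.10. It was also detected throughout, with a difference of -3.07 (standard error 0.40, adjusted p = 0.000877), and its dimmer probe was called lower as well, at -2.52 (adjusted p = 0.0343). Txndc15, a membrane protein with a thioredoxin domain, read 6.64, 6.82 and 6.56 against 12.17, 11.29 and 11.01. No Ago2-deficient oocyte detected it, and it was at least 28.2-fold lower (adjusted p = 0.000208).

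Txnl4a, a thioredoxin-like protein of the splicing machinery, read 8.34, 8.58 and 8.11 in Ago2-deficient oocytes and 10.25, 10.38 and 10.78 in GV oocytes. It was undetected in all the Ago2-deficient oocytes, at least 4.36-fold lower (adjusted p = 0.00171). A second probe of the gene was lower too, at -2.64 (adjusted p = 0.0283), and the remaining one was detected on no array. The call was lost with cyclic loess, at -0.20, and under centring, at -1.19. Txnrd3, a thioredoxin and glutathione reductase, and Txnip, which binds and inhibits thioredoxin, were dim in the GV oocytes, with means of 8.68 and 8.49, and undetected in the Ago2-deficient oocytes. Txnrd3 was at least 2.43-fold lower (adjusted p = 0.0112), a call lost without GV replicate 3 (adjusted p = 0.0536), and Txnip was at least 2.86-fold lower (adjusted p = 0.0487), a call lost without Ago2-deficient replicate 2 or 3 or without GV replicate 1 or 3 (adjusted p = 0.0671 to 0.158). Both turned direction under centring, to 0.76 and 0.57.

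The remaining thioredoxin-domain genes were not called. Txndc11, which binds the dual oxidases, read 16.45, 16.29 and 16.69 in Ago2-deficient oocytes and 15.16, 15.84 and 15.80 in GV oocytes. The Ago2-deficient oocytes lay above the GV oocytes without overlap, with a difference of 0.88 (standard error 0.35) that did not pass the test (adjusted p = 0.0633). Txndc17, a disulphide reductase of the cytosol, and Txndc5, a disulphide isomerase of the endoplasmic reticulum, each were detected in 1 Ago2-deficient oocyte and spread over more than 3 log2 units there. Their differences were 0.11 (standard error 0.98, adjusted p = 0.930) and -0.75 (standard error 1.13, adjusted p = 0.587). Of the untested family members, Txnl1 was detected in 2 GV oocytes, Txndc12 in 1 GV oocyte, Txnrd1, the cytosolic thioredoxin reductase, in 2 Ago2-deficient oocytes, Txnl4b in 1 Ago2-deficient oocyte, and Txndc16 and Txnrd2 on no array.

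Glutathione synthesis gave the highest difference among the members. Gclm, the modifier subunit of glutamate-cysteine ligase, read 16.19, 16.26 and 16.43 in Ago2-deficient oocytes and 12.13, 12.94 and 12.68 in GV oocytes. The Ago2-deficient oocytes lay close together and well above the GV oocytes, and the difference was 3.71 (standard error 0.35, adjusted p = 0.000274). It stayed above 0 in each alternative tried, but was 0.72 and did not pass the test under median scaling (adjusted p = 0.273). Gclc, the catalytic subunit that Gclm assists, and Gsr, which returns oxidized glutathione to its reduced form, were detected on no array. Gss, which adds glycine in the second step of synthesis, was detected in GV oocyte 3 alone and was not tested. Its probe read 10.60, 9.52 and 8.52 in the Ago2-deficient oocytes, all without detection, and 7.26, 7.39 and 7.93 in the GV oocytes, so undetected spots of the Ago2-deficient arrays can carry higher log2 values than a detected spot of a GV array.

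Glrx5, the mitochondrial glutaredoxin needed for iron-sulphur clusters, read 7.02, 8.55 and 11.06 in Ago2-deficient oocytes and 15.31, 15.34 and 15.27 in GV oocytes. The GV oocytes were nearly alike, whereas the Ago2-deficient oocytes were spread widely and all lay far below, the lowest without detection. The difference was -6.43 (standard error 0.96, adjusted p = 0.00148), with -5.50 left without Ago2-deficient replicate 1 and -7.52 without Ago2-deficient replicate 3. Glrx3, a cytosolic glutaredoxin, was detected on no array, at 6.37 to 7.28.

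The glutathione S-transferases couple glutathione to electrophiles. Of 18 genes 6 were tested, 2 of them lower and none higher, beside 44.8% lower and 17.4% higher over all tested genes. With cyclic loess or under centring, 1 was lower and 1 higher. Gsta4, which clears the lipid peroxidation product hydroxynonenal, read 11.33, 10.78 and 9.87 in Ago2-deficient oocytes and 12.53, 13.30 and 13.22 in GV oocytes. All 6 oocytes detected it and the groups lay apart, by -2.35 (standard error 0.48, adjusted p = 0.00513). Gsto2, an omega class enzyme that reduces dehydroascorbate, read 6.48, 5.98 and 9.59 against 9.98, 9.63 and 10.05. It was undetected in the Ago2-deficient oocytes, of which oocyte 3 nearly reached the GV oocytes. Its bound of at least 5.76-fold lower (adjusted p = 0.0499) became 12.5 without Ago2-deficient replicate 3 and 3.62 without Ago2-deficient replicate 2. The call was lost when any 1 array other than Ago2-deficient replicate 3 was left out (adjusted p = 0.102 to 0.133), and also with cyclic loess and under centring, at -1.28 and -1.31.

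Gstm5, a mu class transferase, was steady within each group, at 14.33, 14.34 and 14.53 in Ago2-deficient oocytes and 13.42, 13.46 and 13.44 in GV oocytes. The Ago2-deficient oocytes lay above the GV oocytes by 0.96 (standard error 0.29, adjusted p = 0.0255), just under the limit of 1 and so not called. The remaining 3 tested transferases overlapped between the groups. Gstt4, of the theta class, differed by -2.10 (standard error 0.78, adjusted p = 0.0515), Gstp3, of the pi class, by 0.73 (standard error 0.57, adjusted p = 0.300), and Mgst3, a membrane enzyme, by 0.20 (standard error 0.83, adjusted p = 0.851). The Ago2-deficient oocytes detected neither Gstt4 nor Gstp3, although Gstp3 read 9.83 to 11.86 there. Of the 12 untested transferases, Gstm1, Gstm2, Gstm4, Gstm6, Gstt1 and Mgst2 were detected on no array. Gstk1 was detected in 2 GV oocytes, Gstt3 and Mgst1 in 1 Ago2-deficient oocyte each, and Gsta3, Gstp1 and Gstt2 in both groups.

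The haem oxygenases break down haem to biliverdin, iron and carbon monoxide. Hmox2, the constitutive form, read 6.24, 6.53 and 6.82 in Ago2-deficient oocytes and 10.80, 10.62 and 10.55 in GV oocytes. Every GV and no Ago2-deficient oocyte detected it, and it was at least 17.5-fold lower (adjusted p = 0.000183). Hmox1, the form induced by stress, read 9.40, 7.73 and 8.84 against 8.10, 8.10 and 8.47. The groups overlapped, 1 Ago2-deficient oocyte detected it, and the difference of 0.43 (standard error 0.49) did not pass the test (adjusted p = 0.467), although it was called higher under centring. Nqo2, a quinone reductase, was detected on no array.

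**Figure D3:**
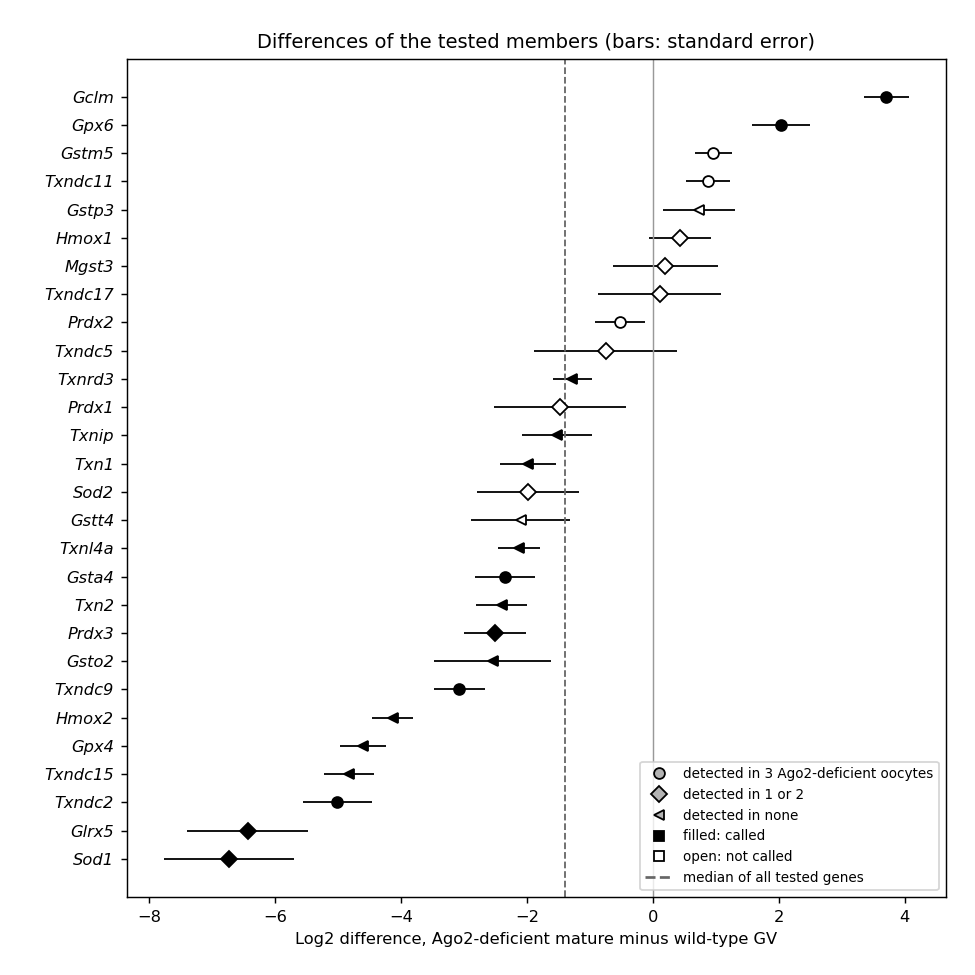
Log2 difference of each tested member, Ago2-deficient mature minus wild-type GV (horizontal axis, with standard error bars), ordered by size. Filled symbols passed the test, shapes give in how many Ago2-deficient oocytes the gene was detected, and the dashes mark where the median of all tested genes lies, -1.39. The members run from -6.73 for Sod1 to 3.71 for Gclm, and the triangles, detected in no Ago2-deficient oocyte, hold 9 of the 15 lower genes.

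Undetected spots were brighter on the Ago2-deficient than on the GV arrays. The 95th percentile of undetected probes was 9.86, 9.18 and 8.96 in the Ago2-deficient oocytes, against 7.83 to 7.93 in the GV oocytes. Of the 15 lower members, 11 had a GV mean above 9.86 and 4 under it. Of the 15, 3 were detected on every Ago2-deficient array, 3 on 1 or 2 and 9 on none. Of the 17 called members, 9 kept their call in each alternative that tested them. They were Sod1, Gpx4, Prdx3, Txndc15, Txndc2, Txndc9, Glrx5, Gsta4 and Hmox2. The filter to probes detected on all 6 arrays tested Txndc2, Txndc9 and Gsta4 alone of these 9.

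The scaling between arrays sets where a difference of 0 lies. The median of all tested genes was -1.39 with the deposited values, -3.08 under median scaling, -1.98 without scaling, -0.42 under centring and -0.36 with cyclic loess. Under these scalings, 24, 18, 10 and 10 members were called lower and 0, 1, 4 and 4 higher. Over all tested genes the calls, lower and then higher, were 3543 and 1378 with the deposited values, 6223 and 311 under median scaling, 4778 and 609 without scaling, 2479 and 1589 under centring, and 2515 and 1952 with cyclic loess. Relative to the median of all tested genes, the members' median was -0.59 with the deposited values, and -0.30, -0.30, -0.30 and -0.33 in turn under the other scalings. Among the 8 members detected on all 6 arrays, Txndc2, Txndc9 and Gsta4 were lower and Gclm above 0 under every scaling.

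**Figure D4:**
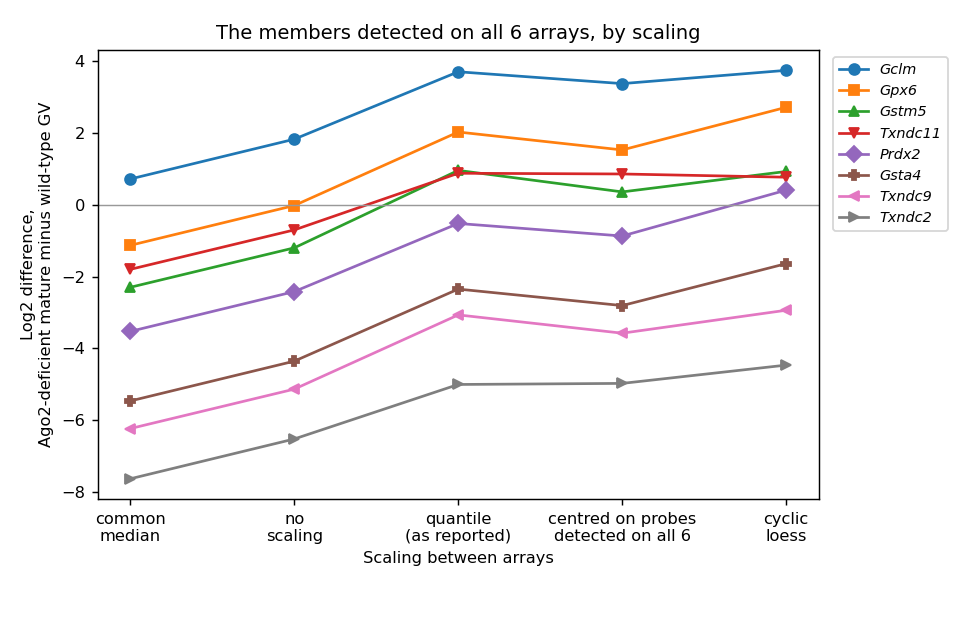
Log2 difference, Ago2-deficient mature minus wild-type GV (vertical axis), of the 8 members detected on all 6 arrays under 5 scalings between arrays (horizontal axis, categories in no order of size, with lines to guide the eye). Txndc2, Txndc9 and Gsta4 stay below 0 and Gclm above 0, while Gpx6, Gstm5, Txndc11 and Prdx2 lie on both sides of 0.

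The regulators of NRF2 did not move one way. Keap1, the adaptor that brings NRF2 to its ubiquitin ligase, read 14.64, 15.08 and 14.56 in Ago2-deficient oocytes and 9.65, 10.16 and 8.47 in GV oocytes. All 6 oocytes detected it and the Ago2-deficient oocytes lay far above, by 5.34 (standard error 0.50, adjusted p = 0.000281), a call that held in each alternative. Cul3, the scaffold of the same ligase, was detected in no Ago2-deficient oocyte and was at least 16.4-fold lower (adjusted p = 0.000367). Mafg, a small Maf partner of NRF2, was higher by 2.90 (standard error 0.46, adjusted p = 0.0019) on its brighter probe and differed by 0.10 on the other (adjusted p = 0.942), and the brighter probe stood at -0.27 under median scaling. Of the 9 genes of this list on the array, 7 were tested, 2 were higher, 1 lower and 4 not called, with a median of 0.08. Over all tested genes, 17.4% were higher and 44.8% lower, with a median of -1.39. Under median scaling 1 gene of the list was higher and 4 lower. Those not called with the deposited values were Rbx1 (0.08), Maff (-0.86), Nfe2l1 (-1.08) and Sqstm1 (0.91). The probes of Rbx1 disagreed, since a dimmer one was lower by -4.36 (adjusted p = 0.00674). No probe carries Nfe2l2, the gene of NRF2, as its single symbol.

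Among the tested genes that supply NADPH and cystine or turn glutathione over, all but Cbs were lower and none was higher, beside 44.8% lower over all tested genes. All but Ggct passed the filter through the GV oocytes alone, which leans these counts towards lower genes. Of 8 NADPH genes 2 were tested and both were lower, Tkt, the transketolase, by -3.88 (standard error 0.65, adjusted p = 0.00226; -3.18 without Ago2-deficient replicate 3), and H6pd, a glucose-6-phosphate dehydrogenase of the endoplasmic reticulum, at least 3.82-fold (adjusted p = 0.00808; not called with cyclic loess, at -0.13, or under centring, at -0.59). Of 18 genes of glutathione turnover and cystine supply 6 were tested and 5 were lower, or 2 with cyclic loess and 3 under centring. Hagh, which releases glutathione in the second step of the glyoxalase pathway, was at least 39.1-fold lower (adjusted p = 0.00062), or 61.8-fold without Ago2-deficient replicate 3. Slc7a11 and Slc3a2, the subunits of the cystine importer, were lower by -2.59 (adjusted p = 0.0358) and -2.72 (adjusted p = 0.0275). Both calls were lost without Ago2-deficient replicate 2 or any 1 GV array (adjusted p = 0.054 to 0.118), and the differences without Ago2-deficient replicates 1 and 3 were -3.26 and -1.65 for Slc7a11 and -1.84 and -3.60 for Slc3a2. With cyclic loess neither was called, at -0.86 (adjusted p = 0.351) and -0.97 (adjusted p = 0.0634), nor was Slc7a11 under centring, at -1.86 (adjusted p = 0.115). Chac2 and Ggct, which act in glutathione breakdown, were lower too, the first at least 4.50-fold (adjusted p = 0.00189; not called with cyclic loess, at -0.51, or under centring, at -0.64) and the second by -2.08 (adjusted p = 0.0057). Cbs, an enzyme on the way to cysteine, was not called (-1.44, adjusted p = 0.0665). The list medians were -2.90 and -2.38, beside -1.39 over all tested genes.

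**Figure D5:**
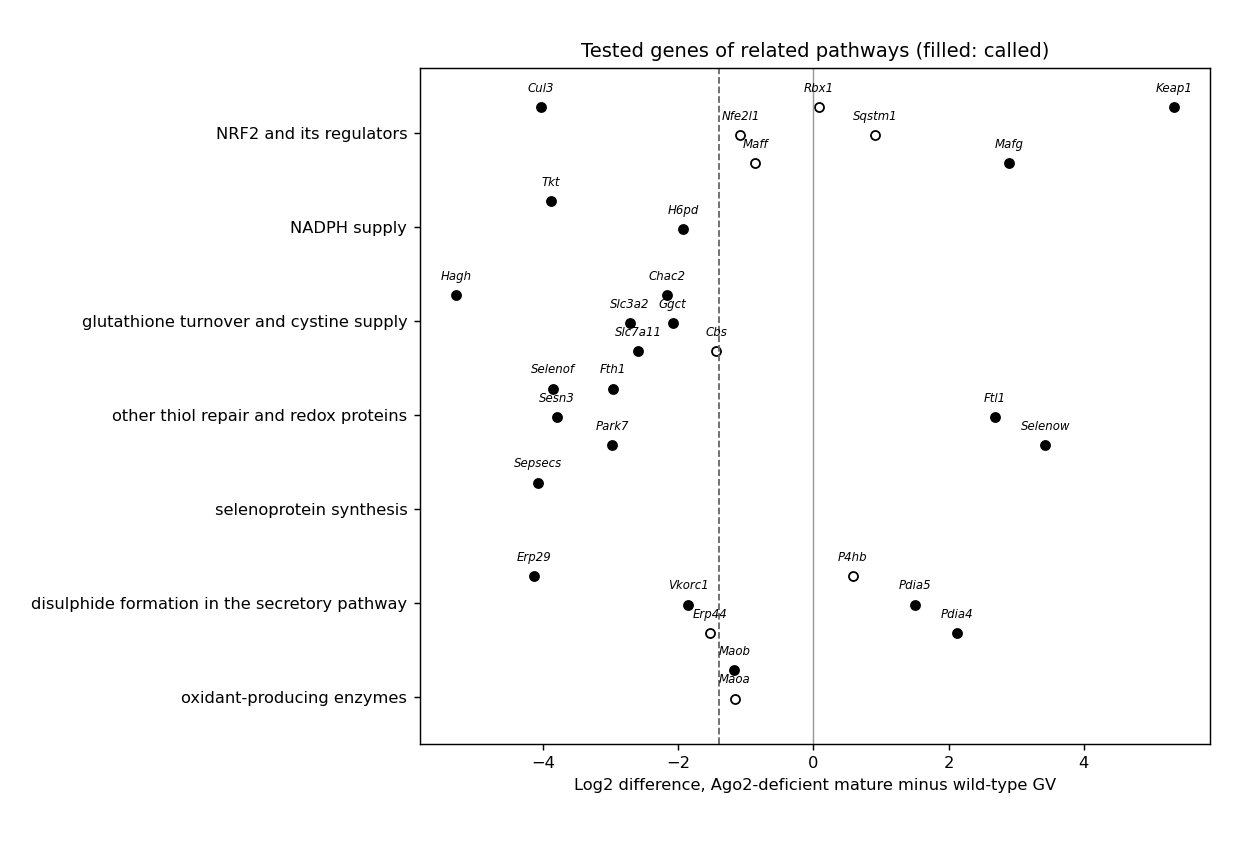
Log2 difference, Ago2-deficient mature minus wild-type GV (horizontal axis), of the tested genes in 7 lists of related pathways, filled where called and staggered in height for legibility. The solid line is 0 and the dashed line the median of all tested genes, -1.39. Keap1 at 5.34 lies farthest to the right and Hagh at -5.29 farthest to the left.

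Other redox proteins moved both ways. Of 16 further thiol and iron-binding genes 6 were tested, 2 higher and 4 lower, beside 17.4% higher and 44.8% lower over all tested genes. The ferritin subunits parted: Ftl1, the light chain, read 16.90 ± 0.45 against 14.22 ± 0.25 in GV oocytes (mean and SD of 3 arrays), a difference of 2.68 (adjusted p = 0.00107) that was -0.10 under median scaling. Fth1, the heavy chain, read 10.77 ± 1.65 and 13.73 ± 0.30, a difference of -2.96 (adjusted p = 0.0173) that was -3.91 without Ago2-deficient replicate 1 and lost its call without Ago2-deficient replicate 2 or GV replicate 1 or 3 (adjusted p = 0.052 to 0.0645). Among small selenoproteins, Selenow was detected in every Ago2-deficient and no GV oocyte and was at least 10.7-fold higher (adjusted p = 0.000857), while Selenof of the endoplasmic reticulum was lower by -3.85 (adjusted p = 0.00539; -4.74 without Ago2-deficient replicate 2). Sesn3, a sestrin, was at least 13.9-fold lower (adjusted p = 0.000506), and Park7, a sensor of oxidation, at least 7.90-fold lower (adjusted p = 0.006), or 4.94-fold without Ago2-deficient replicate 3, with no call under cyclic loess, at -1.35. Of 4 genes that make or insert selenocysteine, which the active site of Gpx4 requires, Sepsecs alone was tested, and it was at least 16.8-fold lower (adjusted p = 0.000515).

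Of 14 genes of disulphide formation in the secretory pathway 6 were tested, 2 higher, 2 lower and 2 not called. Over all tested genes, 17.4% were higher and 44.8% lower. Under median scaling none of the 6 was higher and 5 were lower. Pdia4 and Pdia5, disulphide isomerases, were higher by 2.13 (adjusted p = 0.0271) and 1.51 (adjusted p = 0.00809), but stood at -0.93 and -1.82 under median scaling. The call of Pdia4 was lost without any 1 of Ago2-deficient replicates 2 and 3 and GV replicates 1 and 3 (adjusted p = 0.0699 to 0.0957), and its difference was 2.75 without Ago2-deficient replicate 1. Vkorc1, the vitamin K epoxide reductase, was lower by -1.85 (adjusted p = 0.00273). Erp29 was lower by -4.14 (adjusted p = 0.0153), with -2.79, -4.76 and -4.89 left without Ago2-deficient replicates 1, 2 and 3 and a lost call without GV replicate 1 (adjusted p = 0.0535). P4hb, the main isomerase, and Erp44 differed by 0.58 (adjusted p = 0.142) and -1.53 (adjusted p = 0.0977). Of 18 oxidant-producing enzymes 2 were tested, of which Maob was at least 2.25-fold lower (adjusted p = 0.0472; not called without any 1 of the 5 arrays other than Ago2-deficient replicate 1, adjusted p = 0.0746 to 0.15) and Maoa was not called (-1.16, adjusted p = 0.147).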

How the data were processed

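Single oocytes were profiled on Applied Biosystems mouse arrays (1 oocyte per array, 3 per group). Per the study's methods, equal amounts of amplified cDNA were transcribed to digoxigenin-labelled cRNA and read by chemiluminescence. The deposited signal intensity and the signal-to-noise score of each probe come from the scanner, and the authors also deposited log2 values, quantile normalized over the 6 arrays, whose quantiles were equal between arrays to within 0.01067. The deposited series table held the same values with 2675 cells empty. No source used here names the scanner's software.

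Of 33012 probes, 14411 carry 1 gene symbol in the platform annotation, 247 several and 18354 none, and the gene identifiers of all 63 member probes were found in the gene table. Probes with a signal-to-noise ratio of 3 or more on all 3 arrays of a group were tested (8018 probes, 7915 genes) with limma 3.58.1 (lmFit, eBayes) in R 4.3.3, adjusted by Benjamini and Hochberg. Genes counted once, by their brightest tested probe. Without adjustment, 5303 genes had a p under 0.05. The replicate numbers were not used as a block. The number of arrays limits the precision.

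Every tested member is named. Values per array are given for called members with a log2 difference of at least 2, members detected on all 6 arrays and the 2 brightest of each role. In the other lists, up to 4 called genes (largest difference) and 2 uncalled genes (highest mean) follow a rule. Ggct, Fth1, Ftl1, Nfe2l1 and Sqstm1 fall outside this rule and were named with their values known. The members, lists and tests were chosen with earlier results of these data known. Alternatives covered the scaling, background, filter, detection limit, flags, variance model, thresholds, probes of a gene, replicate block and each array left out. The block was a fixed term for the replicate number in the limma design, with statmod 1.5.0 loaded beside limma. The plots used Python 3.11.15 with matplotlib 3.10.9. Promoters were taken from RefSeq (GRCm38.p6).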

Additional observations from a re-analysis of the deposited data

How the results depend on the processing

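The replicate numbers did not pair the oocytes (same-number correlations of deviations -0.0487, 0.0275 and -0.0339), and with a replicate block 2 members were higher and 15 lower, with a median of -1.98. Of 17 called members, 14 kept their call with each array left out and 9 kept it in all alternatives that tested them. Among the called genes of the other lists, 10 of 22 kept their call in all alternatives that tested them. Of 621 recomputed differences of members, 540 kept their direction and side of the threshold, 31 lost the call, 26 gained one and 24 turned direction. The causes were not tested. The members called higher, called lower and their median were 0, 24 and -3.38 under median scaling, 1, 18 and -2.28 without scaling, 4, 10 and -0.69 with cyclic loess, and 4, 10 and -0.72 under centring. The median was -2.67 with background subtracted and, over all 59 members without a filter, -0.10. On the 8 members detected on all 6 arrays 3 were lower and the median turned to 0.18. With an array left out, 2 to 3 were higher and 12 to 16 lower, with medians of -2.20 to -1.80. Member probes detected averaged 16.3 per Ago2-deficient array and 36.3 per GV array, or 23.3 and 39.7 at a signal-to-noise limit of 2, with 31.0 per GV array at a limit of 5. Directions turned as follows. Under median scaling, Gpx6 was at -1.13, Txndc11 -1.80, Txndc17 -1.71, Gstm5 -2.30, Gstp3 -1.82, Mgst3 -0.75, Hmox1 -0.53, Mafg -0.27, Rbx1 -3.21, Sqstm1 -0.43, Ftl1 -0.10, P4hb -1.65, Pdia4 -0.93 and Pdia5 -1.82. Without scaling, Gpx6 was at -0.02, Txndc11 -0.70, Txndc17 -0.61, Gstm5 -1.20, Gstp3 -0.71, Rbx1 -2.10, P4hb -0.54 and Pdia5 -0.72. With cyclic loess, Prdx1 was at 0.27, Prdx2 0.41, Txndc5 0.70, Maff 0.48, Erp44 0.09 and Maoa 0.14. Under centring, Txnip was at 0.57, Txnrd3 0.76, Nfe2l1 0.47, Rbx1 -0.55, Cbs 0.54, Maoa 0.42 and Maob 0.71. With background subtracted, Txndc17 was at -0.27 and Mgst3 -0.42, and with the probes of a gene averaged Rbx1 was at -1.95. With an array left out, Txndc17 ran from -0.67 to 1.26, Txndc5 from -1.71 to 0.58, Mgst3 from -0.71 to 0.97, Maff from -2.36 to 0.28, Rbx1 from -0.22 to 0.37 and Sqstm1 from -0.04 to 1.53.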
